A study of Homo sapiens with 58 samples.

Results

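The 51 genes described here act in the G2 phase and in mitosis, and were followed in human embryonic stem cells led towards somites. They were chosen by gene symbol, and all 51 were found among the 19084 genes of the deposited count table. RNA-seq libraries were made with LM-seq from total RNA of H1, an established wild-type human embryonic stem cell line. Day0 cells were undifferentiated and grew in E8 medium. Day1 cells were mesendoderm, which gives rise to mesoderm and endoderm, after E8 medium with activin A (100 ng/mL) and CHIR99021 (3 µM), an activator of the Wnt pathway. For Day2, cells were made into presomitic mesoderm, the tissue from which somites form, in E6 medium with CHIR99021 (3 µM), FGF2 (100 ng/mL), NOGGIN (100 ng/mL), which blocks BMP, and A83-01 (2 µM), which blocks the activin and nodal receptors. For Day3, they were made into somite cells in E6 medium with PD0325901 (1 µM) against MEK, IWR1 (2.5 µM) against Wnt, A83-01 (2 µM) and NOGGIN (100 ng/mL). Each of the 4 days had 3 libraries. A separate course of presomitic mesoderm was sampled every 30 min between 30 and 690 min, with 23 time points and 2 libraries at each. Its medium and its time 0 are not stated in the labels. The labels also do not say that replicate libraries came from separate cultures, so the p-values measure the spread between libraries, which may be technical.

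In the cell cycle, G2 follows DNA replication, and cyclin B bound to the kinase CDK1 then drives the cell into mitosis. Chromosomes condense and attach by their kinetochores to the spindle, and the spindle checkpoint holds the cell back until all are attached. The anaphase promoting complex (APC/C) then marks cyclin B and securin for destruction, the sister chromatids part, and cytokinesis divides the cell. Many of these genes are transcribed late in the cycle from promoters that hold a cell cycle genes homology region, known as CHR. The MuvB complex reads that element through its subunit LIN54. It represses with RBL1 or RBL2 and E2F4 in the DREAM complex, and activates with MYBL2 and FOXM1. CCAAT boxes, the sites of the factor NF-Y, often lie upstream of the CHR. Stem cells are known for a short G1 phase and a rapid cycle.

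The promoters show what many of the 51 share in sequence, which the choice of genes did not use. RefSeq promoter windows (GRCh38.p14, 250 bases before to 50 bases after a start) were at hand for 43 of the 51 genes, in 55 windows, and not for RACGAP1, AURKA, FOXM1, TPX2, BUB3, BIRC5, TTK and UBE2C. The CHR was searched as TTTGAA or TTCGAA and the CCAAT box as CCAAT, both on either strand. The 120 bases before the start are printed below for 9 members that the results name, with matches of either motif in capitals. PLK1, CCNB2, CDC20, PRC1, HMMR, ANLN and CKS2 hold a CHR there, and KIF2C and CENPE are shown as examples without a match.
PLK1: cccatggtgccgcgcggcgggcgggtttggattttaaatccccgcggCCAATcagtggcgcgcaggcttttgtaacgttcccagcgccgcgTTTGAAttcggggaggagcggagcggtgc
CCNB2: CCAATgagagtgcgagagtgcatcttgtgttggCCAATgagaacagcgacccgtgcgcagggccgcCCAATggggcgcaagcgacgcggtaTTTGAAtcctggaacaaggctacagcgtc
CDC20: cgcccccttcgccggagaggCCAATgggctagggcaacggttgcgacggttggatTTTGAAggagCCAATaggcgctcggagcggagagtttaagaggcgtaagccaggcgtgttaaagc
PRC1: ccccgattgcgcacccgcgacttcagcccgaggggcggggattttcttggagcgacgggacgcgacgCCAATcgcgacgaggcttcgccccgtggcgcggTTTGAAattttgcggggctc
HMMR: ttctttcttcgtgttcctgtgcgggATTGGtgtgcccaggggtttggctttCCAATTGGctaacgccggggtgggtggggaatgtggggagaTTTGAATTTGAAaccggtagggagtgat
ANLN: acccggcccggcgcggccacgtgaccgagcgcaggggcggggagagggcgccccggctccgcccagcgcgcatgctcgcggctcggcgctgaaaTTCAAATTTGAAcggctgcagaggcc
CKS2: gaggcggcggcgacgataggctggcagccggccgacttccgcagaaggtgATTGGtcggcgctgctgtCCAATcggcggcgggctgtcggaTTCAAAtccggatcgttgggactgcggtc
KIF2C: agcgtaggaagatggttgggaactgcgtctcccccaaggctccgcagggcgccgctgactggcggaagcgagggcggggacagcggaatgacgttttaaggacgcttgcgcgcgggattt
CENPE: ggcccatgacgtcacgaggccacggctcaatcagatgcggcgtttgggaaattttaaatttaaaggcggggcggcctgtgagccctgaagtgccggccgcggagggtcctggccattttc

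These stretches lie at chr16:23678769-23678888 (PLK1), chr15:59105026-59105145 (CCNB2), chr1:43358861-43358980 (CDC20), chr5:163460512-163460631 (HMMR), chr7:36389742-36389861 (ANLN), chr9:89311075-89311194 (CKS2) and chr1:44739717-44739836 (KIF2C) on the plus strand. PRC1 (chr15:90994536-90994655) and CENPE (chr4:103198344-103198463) are on the minus strand and are written 5′ to 3′ on it. A CHR match was present in 38 of the 55 member windows, or 35 of the 43 genes, against 16.4% of all 35116 windows and 19.5% of all genes in the table. CCAAT was present in 39 member windows, or 34 genes, against 34.6% of all windows and 39.7% of all genes. Of the 51 CHR matches in member windows, 37 (72.5%) lay between 60 bases before and 50 bases after the start, where 29.8% of the CHR matches in all windows lay and which is 36.7% of a window's length. An E2F site (TTTCCCGC, TTTCGCGC, TTTGCCGC or TTTGGCGC, either strand) was present in 4 member windows, against 3.31% of all windows. A match describes these letters only.

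Depth, as the summed expected counts of a library, ran from 3160806 to 7810028 in the daily libraries, was lowest on Day2 (3160806 to 3599441), and ran from 2533650 to 8956522 in the course. The smallest count of any of the 51 in any library was 15, for CDC25C. The sums of the marker lists of the labelled states followed the labels. Pluripotency genes summed to 3509 to 4174 TPM (a level scaled for library depth and gene length) at Day0 and to 153 to 275 TPM at Day3. Mesendoderm genes reached 809 to 879 TPM at Day1. Presomitic genes reached 248 to 696 TPM at Day2, mostly from RSPO3 (mean 228 TPM) and MSGN1 (115 TPM), and 167 to 216 TPM at Day3. TBX6, MSGN1, DLL3 and RSPO3 were lower at Day3 than at Day2. DLL1 was higher at Day3 (147 against 35.9 TPM), and HES7 was low on both days (0.80 and 1.28 TPM). Somite genes reached 794 to 959.9 TPM at Day3. Over the course the presomitic list went from 1170.5 to 1402.5 TPM at 30 to 90 min down to 594 to 757 TPM at 630 to 690 min, while the somite list went from 12.0 to 25.2 TPM up to 1017 to 1294 TPM. Of the lists for other tissues, the neural list stood at 294 to 1108 TPM across the groups with 7 of 7 genes detected, and most of it came from TUBB3 (group means of 235 to 555 TPM) and STMN2 (73.9 to 435 TPM). It was highest at Day2 (743 to 1108 TPM) and Day3 (717 to 1062 TPM). At Day2 its sum was above that of the presomitic list. PAX6, STMN2, MAP2, ELAVL3 and DCX had their highest group mean at Day2, and SOX1 and TUBB3 at Day3. The definitive endoderm list, with SOX17 and FOXA2 at 0 in every Day2 and Day3 library, was at 246 to 445 TPM at the end of the course, nearly all of it from CXCR4 (mean 356 TPM), which is not specific to endoderm, while SOX17, FOXA2 and GATA4 had means of 0.053, 0.050 and 2.45 TPM. The lateral and cardiac mesoderm list summed to at most 115 TPM and the trophoblast list to at most 13.9 TPM in any group, with NKX2-5 (all 4 days) and CGA (every group) at 0. The part of these lists, of the change of cell state and of depth in the results that follow was not tested. In bulk RNA, fewer dividing cells and less RNA of these genes per cell cannot be told apart.

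All 51 genes passed the filter on low counts in both series. Their mean daily TPM ran from 12.9 for ESPL1, the separase that cuts cohesin, to 374 for CKS1B, a small subunit of cyclin-dependent kinases, with a median of 84.1 against 15.8 over all genes tested. TOP2A, the topoisomerase that untangles chromosomes (312 TPM), MAD2L1 of the spindle checkpoint (309 TPM) and CKS2, the relative of CKS1B (268 TPM), followed. For 13 of the 51, among them CKS1B, UBE2C and AURKA, the gene tables name pseudogenes of them elsewhere in the genome, and none of those has a row in the count table. Reads from such copies could have been counted with these genes.

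Between the days the 51 genes did not move as a block. Levels are given as CPM, a gene's counts scaled to the size of its library after TMM normalization, changes come from edgeR's quasi-likelihood test over all genes, and a gene counts as changed at a Benjamini-Hochberg adjusted p under 0.05. Of the 51, 27 differed among the 4 days, where 43.6% of the 12765 genes tested did. NUSAP1, MAD2L1, SMC2, CDC25B, ECT2, BUB1B, TOP2A, KIF20A, NDC80, DLGAP5, CKS2 and KIF2C had the smallest p-values. The day with the highest mean was Day0 for 16 genes, Day1 for 7, Day2 for 15 and Day3 for 13. The lowest mean fell on Day1 for 24 genes and on Day2 for 17.

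**Figure D1:**
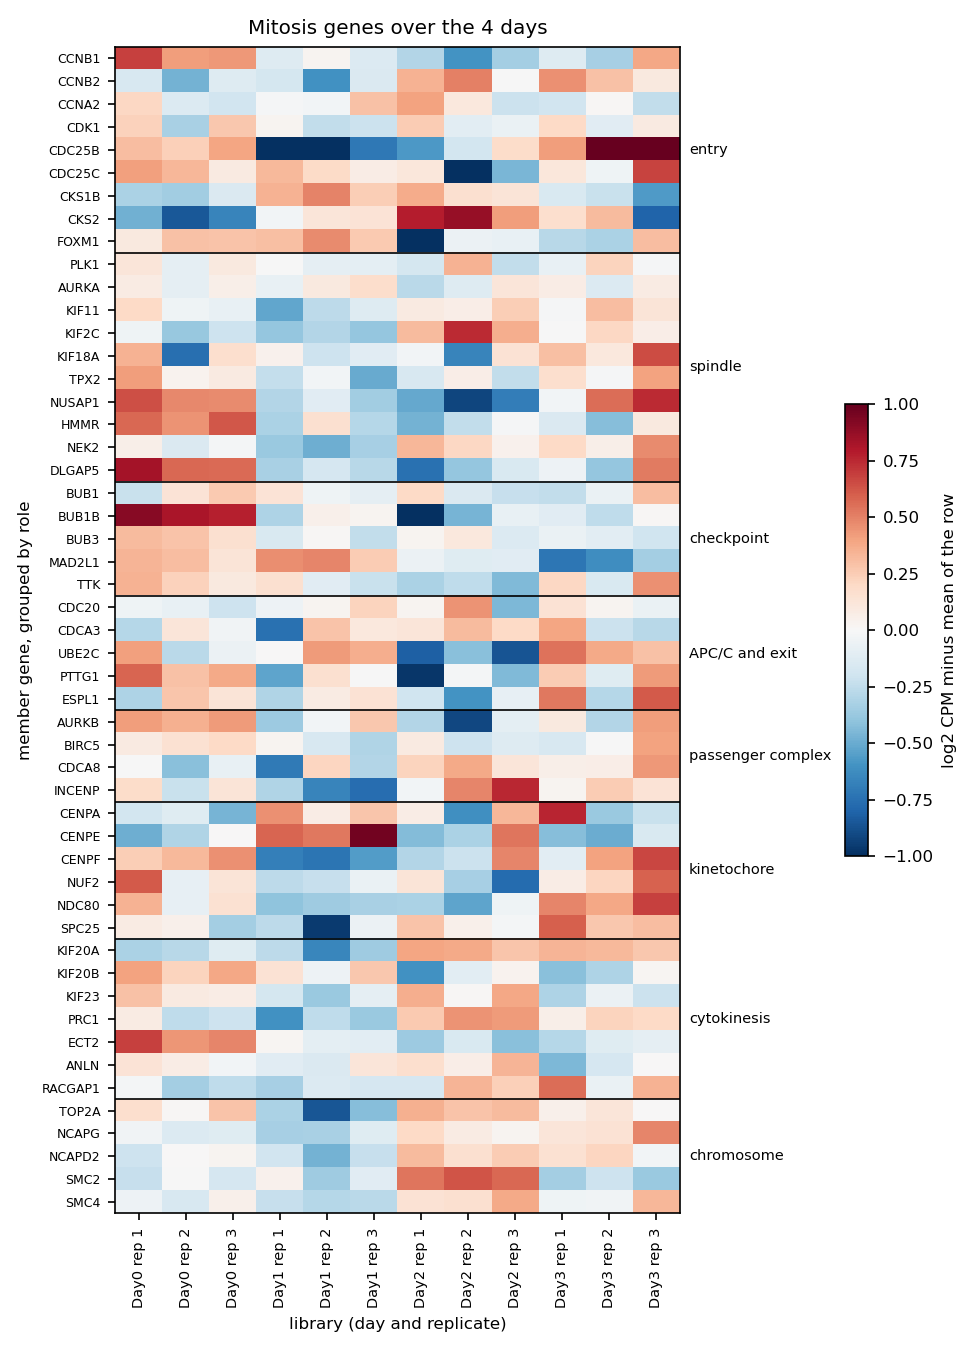
Level of each of the 51 genes (rows, grouped by role) in each of the 12 daily libraries (columns), as log2 CPM minus the mean of the row, with the colour scale ending at -1 and 1. Rows differ in which day is high: BUB1B and DLGAP5 are highest at Day0, CENPE at Day1 and SMC2 at Day2.

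From Day0 to Day1 more of the genes fell than rose. Of the 51, 8 fell and 2 rose, where 3.60% of all genes fell and 3.69% rose (7.29% called). The median change was -0.21 on the log2 scale, against -0.0093 over all genes, and 11 of the 51 changes were above 0. On the TPM scale (limma on log2(TPM + 1)), where the median of all genes was -0.12, 1 was called higher and 11 lower. Over all genes 1019 of 12765 were called on that scale. With a log2 change of at least 1 also required, 2 of the 51 remained by edgeR, and 5.18% of all genes. Leaving out any of the 6 libraries compared left 4 to 6 calls. CENPF and TOP2A passed under all 18 alternatives that set no limit on the size of a change, DLGAP5 failed only without Day1 replicate 1 (adjusted p = 0.0510) and CDC25B only without Day1 replicate 2 (adjusted p = 0.0586). The other 6 lost their call under 4 to 6 alternatives, nearly all of them the removal of 1 of the 6 libraries, with adjusted p up to 0.154.

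CENPF, a large kinetochore protein that is made in G2, stood at 554, 585 and 644 CPM in the 3 Day0 libraries and at 291, 281 and 318 CPM at Day1. The Day1 libraries were all below the Day0 libraries, a fall of 2.0-fold (log2 -1.0 ± 0.21 SE, adjusted p = 0.00606). TOP2A went from 877, 787 and 949.5 to 628, 432 and 580.4 CPM, 1.59-fold (log2 -0.67 ± 0.14 SE, adjusted p = 0.00645). The spindle assembly protein DLGAP5 went from 575, 482 and 479.7 to 258, 288 and 267 CPM, 1.89-fold (log2 -0.92 ± 0.20 SE, adjusted p = 0.00908). CDC25B, the phosphatase that starts CDK1 activation at the centrosome, showed the widest fall, from 27.3, 25.8 and 28.9 to 9.78, 8.71 and 12.9 CPM, 2.61-fold (log2 -1.38 ± 0.31 SE, adjusted p = 0.00946). In none of these did the libraries of the 2 days overlap. NUSAP1 and HMMR, which bind spindle microtubules, BUB1B of the spindle checkpoint and ECT2, which activates RhoA for cytokinesis, fell by 1.73-fold, 1.61-fold, 1.88-fold and 1.52-fold (adjusted p = 0.0216, 0.0357, 0.0259 and 0.0192).

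The pair that rose were of different roles. CENPE, the kinetochore motor that carries chromosomes to the spindle equator, went from 184, 209.6 and 259 CPM to 387, 373 and 504 CPM, 1.94-fold (log2 0.95 ± 0.23 SE, adjusted p = 0.0147). Every Day1 library was above every Day0 library. CKS1B went from 105, 102 and 118 to 166, 185 and 155 CPM, 1.56-fold (log2 0.64 ± 0.16 SE, adjusted p = 0.0213). None of the 5 genes of the APC/C and mitotic exit group (CDC20, CDCA3, UBE2C, PTTG1 and ESPL1) and none of the 4 of the chromosomal passenger complex (AURKB, BIRC5, CDCA8 and INCENP) passed the test (edgeR; 0 and 1 at an unadjusted p under 0.05).

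From Day1 to Day2 the balance turned. Of the 51, 12 rose and 3 fell, where 8.67% of all genes rose and 11.5% fell (20.1% called), and the median change was 0.064, against -0.043 over all genes. On the TPM scale the median of all genes moved to -0.23 and that of the 51 to -0.12, with 6 called higher and 4 lower, so the direction of the median depends on the scale while its place above all genes does not. Over all genes 2845 of 12765 were called on that scale. Without Day1 replicate 1, 2 or 3 the calls numbered 9, 7 and 9.

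Of the 5 chromosome genes 4 were higher at this step. SMC2, the core ATPase of condensin that pairs with SMC4, went from 205, 155 and 184 to 289, 309 and 298 CPM, 1.64-fold (log2 0.72 ± 0.15 SE, adjusted p = 0.00309). Its 3 Day2 libraries lay close together and above every library of the other days. TOP2A went from 628, 432 and 580.4 to 998, 953 and 975 CPM, 1.78-fold (log2 0.83 ± 0.14 SE, adjusted p = 0.000876), and its Day2 libraries were also above those of Day0. The condensin subunit NCAPD2 and SMC4 rose by 1.45-fold and 1.41-fold (adjusted p = 0.0161 and 0.0189), and lost their calls without Day1 replicate 2 (SMC4 also without Day1 replicate 3) and on the TPM scale, with adjusted p up to 0.0995 and 0.156. NCAPG, the fifth of the group, had a change of 0.36 ± 0.15 (SE) with adjusted p = 0.0920.

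Of the 7 cytokinesis genes 3 rose (KIF20A, PRC1 and KIF23), and of the 10 spindle genes 2 (KIF2C and NEK2). KIF20A, the kinesin that brings the passenger complex to the central spindle, went from 89.9, 68.5 and 84.2 to 143, 141 and 131 CPM, 1.71-fold (log2 0.78 ± 0.16 SE, adjusted p = 0.00310). PRC1, which bundles the midzone microtubules, went from 65.2, 83.3 and 76.8 to 120.0, 136 and 134 CPM, 1.73-fold (log2 0.79 ± 0.17 SE, adjusted p = 0.00382). KIF2C, a kinesin that takes microtubules apart at the centromere, went from 80.6, 85.9 and 80.5 to 132, 178 and 136 CPM, 1.80-fold (log2 0.85 ± 0.17 SE, adjusted p = 0.00273). In all 3 genes the Day2 libraries were above the Day1 libraries without overlap. INCENP, the scaffold of the passenger complex, went from 100.1, 78.1 and 72.5 to 122, 174 and 209 CPM, 2.02-fold (log2 1.01 ± 0.20 SE, adjusted p = 0.00299), with the Day2 libraries far apart from each other. CENPF rose by 1.62-fold (adjusted p = 0.0263), but its Day2 libraries read 382, 403 and 658 CPM, and without replicate 3 of Day2 or any 1 Day1 library, and on the TPM scale, the call was lost (adjusted p up to 0.198 over the alternatives).

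The 3 that fell from Day1 to Day2 were UBE2C, MAD2L1 and CENPE. UBE2C, the ubiquitin-conjugating enzyme of the APC/C, went from 49.4, 66.5 and 63.6 to 27.6, 36.7 and 26.7 CPM, 1.98-fold (log2 -0.98 ± 0.23 SE, adjusted p = 0.00772). MAD2L1 fell by 1.42-fold and CENPE by 1.63-fold (adjusted p = 0.0235 and 0.0363). Each of these 2 calls was lost without any 1 of 5 libraries of Day1 and Day2 (all but Day1 replicate 3 for MAD2L1 and all but Day2 replicate 3 for CENPE), with adjusted p up to 0.0950 and 0.144. The Day2 libraries of CENPE read 191, 208 and 375 CPM, so 1 of them lay at the Day1 level.

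**Figure D2:**
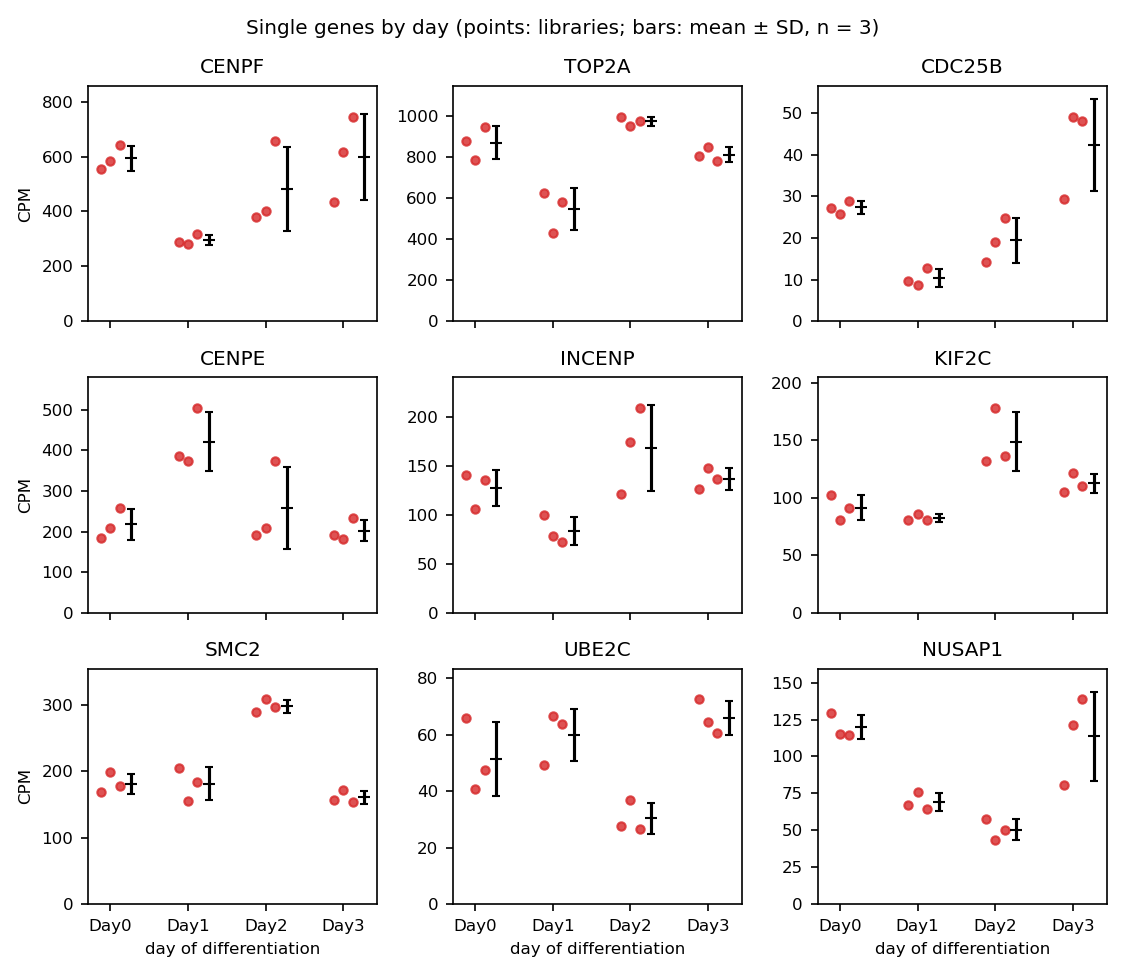
CPM of 9 of the genes in each daily library (points), with the mean ± SD of the 3 libraries of a day (bars). CENPF, TOP2A and CDC25B are low at Day1, CENPE is high there, SMC2 is high at Day2, and UBE2C and NUSAP1 are low at Day2.

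From Day2 to Day3 genes of the group moved both ways in like number. Of the 51, 4 rose and 5 fell, where 11.6% of all genes rose and 11% fell (22.6% called), a share below the background. On the TPM scale 3403 of the 12765 genes tested were called, and the median of all genes was 0.33. Of the 51, 13 were called higher and 1 lower there, and their own median was 0.34, close to that of all genes. SMC2 fell from 289, 309 and 298 to 157, 172 and 154 CPM, 1.86-fold (log2 -0.89 ± 0.15 SE, adjusted p = 0.000627). NUSAP1 rose from 57.5, 43.1 and 50.4 to 80.6, 121 and 139 CPM, 2.26-fold (log2 1.17 ± 0.21 SE, adjusted p = 0.00103). UBE2C rose from 27.6, 36.7 and 26.7 to 72.5, 64.4 and 60.7 CPM, 2.17-fold (log2 1.12 ± 0.23 SE, adjusted p = 0.00301). NDC80, whose complex holds the microtubule at the kinetochore, rose from 97.1, 83.7 and 117 to 171, 159 and 196 CPM, 1.76-fold (log2 0.82 ± 0.17 SE, adjusted p = 0.00356). The 2 days did not overlap in any of these 4 genes, and their calls held under the 18 alternatives that set no limit on size. SMC2 and NDC80 lay under a log2 change of 1.

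CDC25B rose from 14.3, 19.1 and 24.9 to 29.5, 49.1 and 48.2 CPM, 2.17-fold (log2 1.12 ± 0.30 SE, adjusted p = 0.0148), and the call was lost without Day2 replicate 1, without Day3 replicate 3 or with only the 2 days in the fit (adjusted p up to 0.0618). CKS1B, MAD2L1, CKS2 and KIF23, a kinesin of the midzone, fell by 1.37-fold to 1.68-fold with adjusted p of 0.0271 to 0.0450. These 4 were close to the threshold. CKS1B lost its call under 5 alternatives, among them the removal of Day2 replicate 1 or Day3 replicate 3. MAD2L1, CKS2 and KIF23 lost theirs under 9 or more of 18 alternatives, the TPM scale included, with adjusted p up to 0.407. All 3 were also lost without some libraries of Day0 or Day1, which enter only through the shared spread and the TMM scaling. Without Day3 replicate 3 the calls numbered 5, and with only Day2 and Day3 in the fit 4.

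Across the whole differentiation, Day3 against Day0, 1 of the 51 was higher and 6 were lower, where 9.97% of all genes were higher and 11.5% lower (21.5% called). The median change was 0.0042, against 0.042 over all genes. On the TPM scale 2 were called higher and 6 lower, where 2848 of the 12765 genes tested were called. The share of the 51 called, 13.7%, was below the 21.5% of all genes. The 7 calls were 2 of the 5 checkpoint genes, 3 of the 7 cytokinesis genes and 2 of the 10 spindle genes. MAD2L1, whose protein binds CDC20 to hold back the APC/C, stood at 237, 232 and 205 CPM at Day0 and 113, 122 and 148 CPM at Day3, 1.76-fold (log2 -0.81 ± 0.15 SE, adjusted p = 0.000784). BUB1B, its partner in the checkpoint complex, went from 189, 177 and 172 to 92.6, 83.8 and 101 CPM, 1.94-fold (log2 -0.96 ± 0.24 SE, adjusted p = 0.00804). Both were lower in all 3 Day3 libraries than in any Day0 library, while BUB1, BUB3 and TTK of the same group had adjusted p-values of 0.876, 0.0662 and 0.919.

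ECT2 went from 217, 183 and 189 to 109.9, 124 and 126 CPM, 1.63-fold (log2 -0.71 ± 0.15 SE, adjusted p = 0.00258). HMMR, DLGAP5 and KIF20B, a kinesin of late cytokinesis, were lower by 1.62-fold, 1.5-fold and 1.48-fold (adjusted p = 0.0143, 0.0457 and 0.0344). KIF20A alone was higher, 86.5, 89.3 and 99.6 CPM at Day0 against 137, 136 and 131 CPM at Day3, 1.47-fold (log2 0.55 ± 0.16 SE, adjusted p = 0.0171). Without any 1 Day0 library, or without Day3 replicate 1, 4 genes were called. The DLGAP5 call was lost under 11 of 18 alternatives (adjusted p up to 0.185), KIF20B under 7 (up to 0.139), KIF20A without Day0 replicate 1 or 2 or Day3 replicate 1 (up to 0.0666) and HMMR without Day0 replicate 3 or Day3 replicate 2 (up to 0.0643).

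Several central kinases and regulators did not pass the test for any day. CDK1 read 158, 107 and 162 CPM at Day0 and 154, 124 and 143 CPM at Day3 (any day, adjusted p = 0.673). PLK1, the polo-like kinase, had day means of 125 ± 9.72, 116 ± 4.47, 121 ± 29 and 125 ± 14.1 CPM (SD, n = 3 each; edgeR adjusted p = 0.927), the narrowest range of the 51 at 0.11 log2 units. AURKA, CDC20, BUB1 and CCNA2 also failed the test for any day (adjusted p = 0.870, 0.850, 0.946 and 0.581). The mitotic cyclins differed in pattern. CCNB1 stood at 315, 262 and 264 CPM at Day0 and 159.7, 129 and 154 CPM at Day2 (any day, adjusted p = 0.00390), while CCNB2 stood at 79.1, 63.4 and 80.6 and 113, 126 and 88.3 CPM (any day, adjusted p = 0.0204). BIRC5, survivin of the passenger complex, had day means from 149.6 ± 17.3 to 182 ± 7.05 CPM (edgeR adjusted p = 0.380). FOXM1, the transcription factor that drives many of these genes, read 66.1, 74.5 and 64.4 CPM at Day1 and 21.3, 51.2 and 50.7 CPM at Day2, with replicate 1 of Day2 far below the other libraries (any day, adjusted p = 0.130).

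Calls in other cell cycle lists over the days are set beside the share of all genes called. That share was 7.29% from Day0 to Day1, 20.1% from Day1 to Day2 and 22.6% from Day2 to Day3. Of 14 further condensin and cohesin genes, 8 rose and 0 fell from Day1 to Day2 (57.1% called). From Day2 to Day3, 5 fell and 1 rose (42.9% called). The cohesin ring subunit SMC1A had means of 513 ± 30.4, 987 ± 20.4 and 557 ± 96.9 CPM at Day1, Day2 and Day3 (SD, n = 3; edgeR adjusted p = 0.000279 and 0.000668). SMC2 among the 51 was also highest at Day2. Of 42 further G2 and mitosis genes, 3 changed at Day1 (2 higher), 12 at Day2 (5 higher) and 9 at Day3 (6 higher). These were 7.14%, 28.6% and 21.4%, the first and last close to the shares of all genes. LBR, a receptor of the nuclear lamina, rose at Day1 (2.33-fold, adjusted p = 0.000617) and fell at Day2 (2.82-fold, adjusted p = 0.000103). CEP55, which acts in the last cut of cytokinesis, rose at Day3 (2.24-fold, adjusted p = 0.00716), and SKA3 of the outer kinetochore was lower at Day3 than at Day0 (2.54-fold, adjusted p = 0.00210). MKI67, the gene of the Ki-67 proliferation marker, stood at 194 ± 3.89 CPM at Day0 and 104.3 ± 14.7 CPM at Day1 (SD, n = 3; edgeR adjusted p = 0.0519), just short of the threshold.

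Of 12 genes of the MuvB and DREAM complexes, 0, 1 and 1 changed at the 3 successive steps (edgeR; 3, 2 and 2 at an unadjusted p under 0.05). The shares of 0%, 8.33% and 8.33% were below the 7.29%, 20.1% and 22.6% of all genes. MYBL2, the activating partner of MuvB, fell from 122 ± 7.60 to 65.9 ± 4.19 CPM between Day1 and Day2 (SD, n = 3; edgeR adjusted p = 0.00279), and TFDP1, the dimer partner of E2F factors, fell from Day2 to Day3 (adjusted p = 0.000697). Of 19 inner and outer kinetochore genes, 0, 2 and 5 changed (edgeR; 1, 6 and 7 at an unadjusted p under 0.05), or 0%, 10.5% and 26.3%. PMF1 of the outer kinetochore was lowest at Day2 (4.39 ± 2.96 CPM against 35.9 ± 19.0 at Day1, SD, n = 3; edgeR adjusted p = 0.00120). Its exons are shared with a read-through gene, so its counts are uncertain. Of 17 APC/C genes, 1, 4 and 5 changed (5.88%, 23.5% and 29.4%). UBE2S, ANAPC5 and C11orf51 (ANAPC15) led, at edgeR adjusted p of 0.0488, 0.00652 and 0.00821. Of 34 G1/S and replication genes, 3, 7 and 7 changed (8.82%, 20.6% and 20.6%), close to the shares of all genes. TYMS, RRM1 and RRM1 led (edgeR adjusted p = 0.0313, 0.000581 and 0.00248). Of 8 tested genes of the CDK inhibitors and D cyclins, 3, 1 and 1 changed (37.5%, 12.5% and 12.5%). CCND2 rose from 204 ± 22.2 CPM at Day0 to 358 ± 22.2 CPM at Day1 and fell to 143 ± 25.2 CPM at Day2 (SD, n = 3, edgeR adjusted p = 0.00807 and 0.000159). CDKN1A (p21) went from 1.48 ± 0.841 CPM at Day0 to 22.6 ± 5.37 CPM at Day3 (SD, n = 3, edgeR adjusted p = 5.34e-05), and CDKN1B (p27) rose at Day3 (2.49-fold, adjusted p = 0.00200).

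Over the course of presomitic mesoderm the median of the 51 genes followed a shallow arch. The median of their centred log2 CPM lay between -0.050 and 0.022 at 30 to 180 min and rose to between 0.073 and 0.16 at 210 to 390 min. It was 0.031 at 420 min and 2.0e-06 at 450 min, then 0.083 at 480 min and 0.036 at 510 min. From 540 min on it was below 0, and it reached -0.19 at 690 min. The peak of this median was at 360 min (0.16). The median over all genes lay between -0.015 and 0.038 at the same time points. The 2 libraries of a time point differed by 0.0058 to 0.16 in this median, with 0.027 as the middle value of the 23 differences. Of the 51 genes, 33 had their highest time point between 210 and 390 min and 30 had their lowest between 570 and 690 min.

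**Figure D3:**
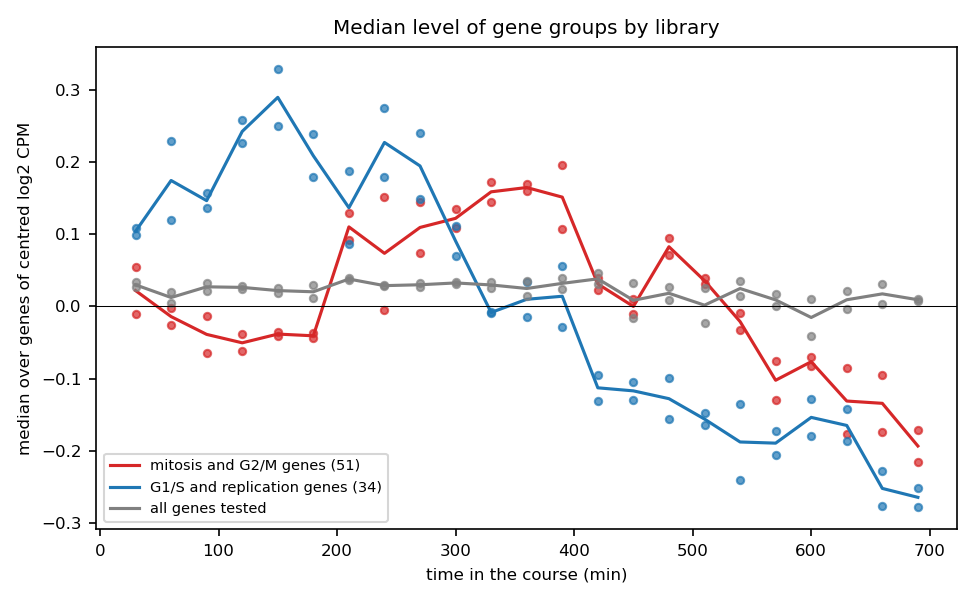
Median over genes of log2 CPM minus the gene's mean, for each of the 46 course libraries (points) with the mean of the 2 libraries of a time point (lines), against time in min. The line of the 51 mitosis genes lies above 0 from 210 to 390 min. It is near 0 at 450 min, higher at 480 min and below 0 from 540 min on. The line of the 34 G1/S genes is highest at 150 min and declines after 240 min, and all genes tested stay near 0.

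At 30 to 90 min the median member of the 6 libraries lay between -0.065 and 0.055, at 330 to 390 min between 0.11 and 0.20, and at 630 to 690 min between -0.22 and -0.085. The middle libraries did not overlap with those of either end. This span of 330 to 390 min was chosen after the profile had been seen. From the middle to the end the median change of the 51 was 0.32 lower on the log2 scale, with 46 of 51 genes lower at the end, whereas the median of all genes changed by 0.014. Under total-count scaling, DESeq2 size factors and TPM the number was 44 to 46. From the start to the middle 38 of the 51 were higher, and 37 to 41 under those scalings. For 13 of the 51 the 6 middle libraries and the 6 end libraries did not overlap, against 5.59% of all genes.

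A curve fitted to all 46 libraries put numbers on the arch gene by gene. The quantity is the fitted value at 360 min minus the mean of the fitted values at 30 and 690 min, and the fit was added after the profile had been seen, so that it describes the pattern that led to it. Of the 51 genes, 19 were higher in the middle and 0 lower, where 5.68% of all genes were higher and 4.34% lower (10% called). The median was 0.20, against 0.029 over all genes, and 50 of the 51 values were above 0. On the TPM scale 12 were called, where 1370 of the 13653 genes tested were.

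The 19 genes were 6 of 7 for cytokinesis, 4 of 5 for the chromosomes, 3 of 6 for the kinetochore, 2 of 5 for the checkpoint, 2 of 10 for the spindle, 1 of 4 passenger genes and 1 of 9 for entry. The entry gene, CDC25B, had 6 start libraries at 59.3 to 76.2 CPM (median 70.9), 6 middle libraries at 74.5 to 104.4 CPM (median 90.7) and 6 end libraries at 46.9 to 75.3 CPM (median 55.3). Its height in the fit was the greatest of the 51, 1.54-fold (log2 0.62 ± 0.097 SE, adjusted p = 1.69e-06), although the windows overlapped slightly. KIF20A read 100.1 to 131 CPM at the start (median 121), 176 to 194 CPM in the middle (median 187) and 125 to 169 CPM at the end (median 145). Its middle libraries were above all libraries of both ends, 1.39-fold (log2 0.47 ± 0.082 SE, adjusted p = 1.61e-05). TTK, the kinase MPS1 that starts the spindle checkpoint, had medians of 56.0, 78.7 and 58.6 CPM, 1.43-fold (log2 0.52 ± 0.093 SE, adjusted p = 2.65e-05), and its middle libraries (lowest 64.1 CPM) were above all end libraries (highest 62.1 CPM).

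At the kinetochore, NUF2, the partner of NDC80, had medians of 60.0, 81.7 and 59.6 CPM, with no overlap between the middle and either end, 1.48-fold (log2 0.56 ± 0.10 SE, adjusted p = 5.06e-05). NDC80 and CENPE followed with 1.35-fold and 1.30-fold (adjusted p = 0.00287 and 0.00741). HMMR was at 94.7, 126 and 66.0 CPM in the median, 1.47-fold (log2 0.56 ± 0.11 SE, adjusted p = 0.000267). It ended below where it began: the highest end library (83.4 CPM) was under the lowest start library (89.7 CPM). Of the 7 cytokinesis genes 6 passed (KIF20A, KIF20B, KIF23, PRC1, ECT2 and RACGAP1), and the other, ANLN, had 0.16 ± 0.094 (SE, adjusted p = 0.347). Of the 5 chromosome genes 4 passed: TOP2A, SMC2, NCAPG and SMC4, by 1.19-fold to 1.29-fold. Of the 9 entry genes only CDC25B passed, and of the 5 APC/C and exit genes none did (edgeR; 1 at an unadjusted p under 0.05). Of the 10 spindle genes HMMR and NEK2 passed, and BIRC5 was the passenger complex member that passed (1.24-fold, adjusted p = 0.00126). BUB1B lay at the threshold itself (adjusted p = 0.0499968).

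**Figure D4:**
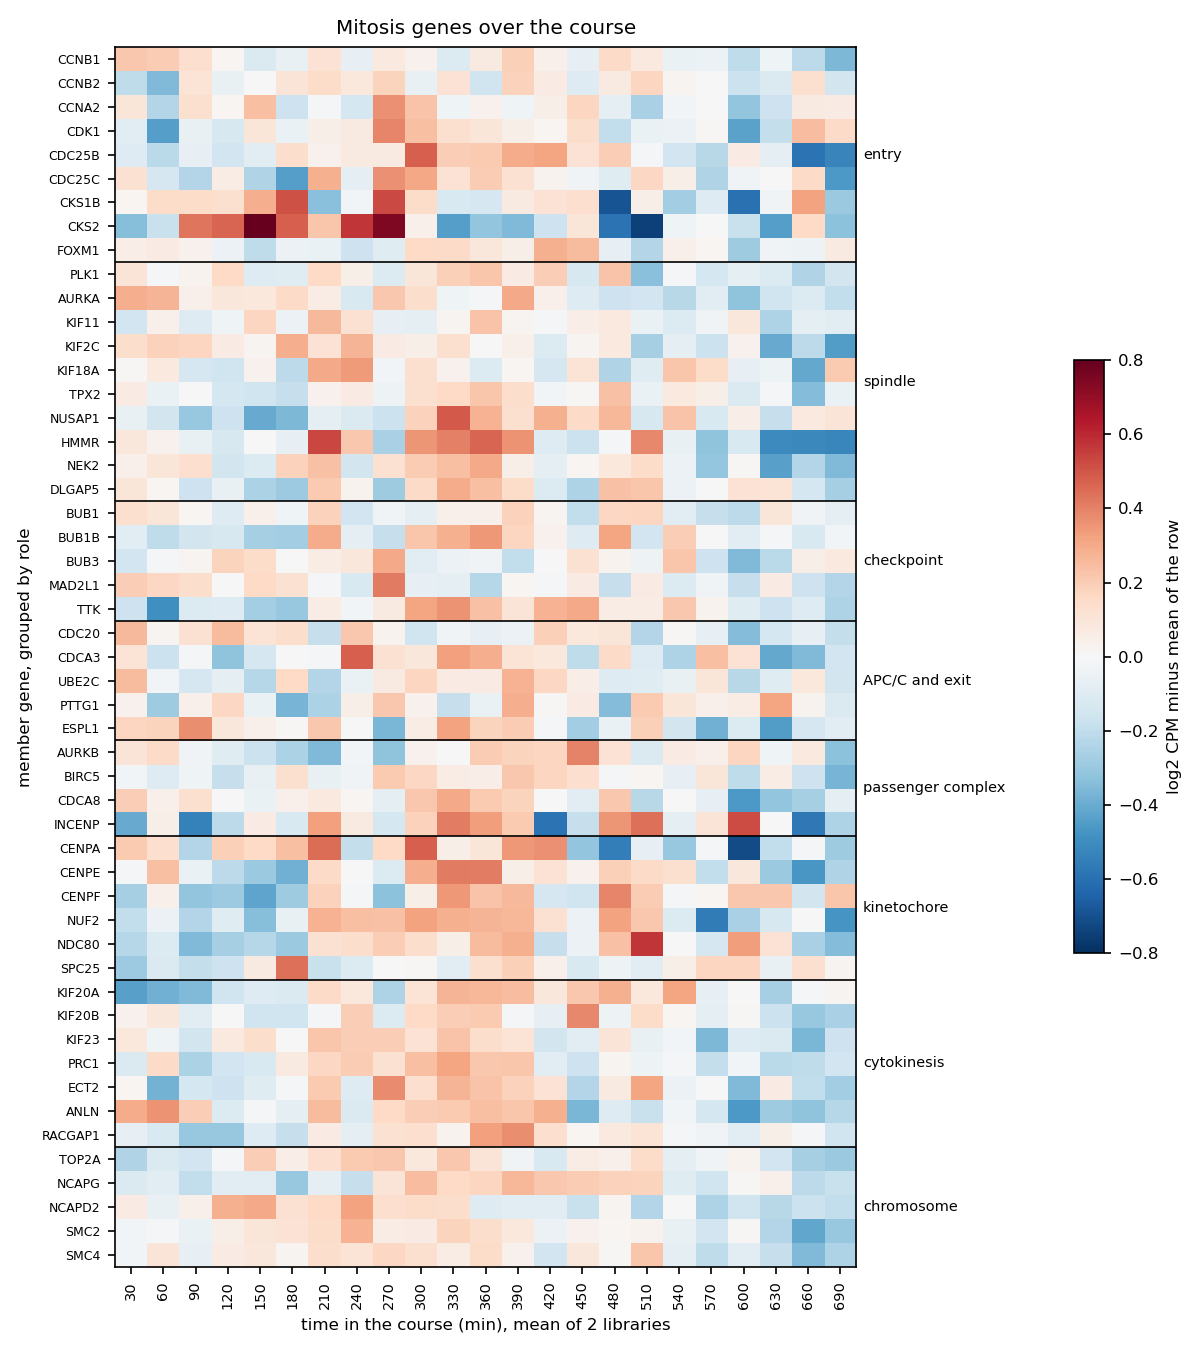
Mean log2 CPM of the 2 libraries of each time point (columns, min) minus the mean of the row, for the 51 genes (rows, grouped by role), with the colour scale ending at -0.8 and 0.8. Many rows of the spindle, kinetochore, cytokinesis and chromosome groups are red over much of the span from 210 to 390 min and blue at the right. The median of the spindle group is below 0 at 270 min (-0.061). CKS2 is high from 90 to 270 min.

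The genes followed this median to different degrees. Over the 23 time point means, the correlation of a gene with the median of the other 50 was over 0.5 for 25 of the 51 and below 0 for 5, and the median over the 1275 pairs of genes was r = 0.23. These correlations rest on shared libraries and are given as a description. HMMR (0.83), PRC1 (0.78), NUF2 (0.78), CDC25B (0.76) and NEK2 (0.75) followed the others most closely. CKS2 (-0.18), PTTG1 or securin (-0.15), SPC25 of the NDC80 complex (-0.13), CKS1B (-0.077) and BUB3 (-0.026) did not.

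Over the 23 time points taken as separate groups, 21 of the 51 differed, where 28.9% of the 13653 genes tested did. DESeq2 called 37. CKS2 had the smallest adjusted p (2e-06) and the widest range, 1.66 log2 units between its highest and lowest time point. Its libraries read 46.2 and 34.3 CPM at 30 min, 99.4 and 91.4 CPM at 150 min, 86.5 and 84.5 CPM at 270 min, 43.7 and 31.3 CPM at 330 min and 31.3 and 28.3 CPM at 510 min. Its 14 libraries from 90 to 270 min all read 53.0 CPM or more, before the median of the set peaked, and 1 library at 660 min (78.8 CPM) lay apart from its replicate (40.5 CPM).

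HMMR differed among the time points with adjusted p = 1.41e-05, and its libraries read 97.8 and 84.6 CPM at 180 min, 151 and 126 CPM at 210 min, 82.1 and 76.6 CPM at 270 min, 123 and 121 CPM at 300 min and 130.4 and 119 CPM at 510 min. CENPF showed dips at 270 min (428 and 344 CPM) and 450 min (412 and 451 CPM) between higher levels at 210 min (543 and 554 CPM), 330 min (644 and 585 CPM) and 480 min (679.8 and 589 CPM), with adjusted p = 6.62e-05. NDC80, CENPE, ANLN, KIF20A, INCENP, DLGAP5 and NUF2 also passed (adjusted p from 4.52e-05 to 0.00125). Of the role groups, 5 of 5 chromosome genes, 4 of 6 kinetochore genes, 4 of 7 cytokinesis genes and 0 of 5 APC/C and exit genes passed (edgeR; 2 of those 5 at an unadjusted p under 0.05).

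A regular rhythm was tested at periods of 300, 270 and 330 min only. Rises and dips at a closer spacing, as in CENPF and HMMR, were not tested for one. The period of 300 min was the one found earlier for HES7 in these data. With a period of 300 min, fitted beside a linear and a quadratic trend, 0 of the 51 passed, where 0.132% of all genes (18) did. At an unadjusted p under 0.05 there were 8 of the 51, and DESeq2, periods of 270 and 330 min, the TPM scale and the other settings also gave 0. The nearest were ANLN, NDC80 and DLGAP5 (edgeR adjusted p = 0.282, 0.305 and 0.306), with ANLN at 0.0853 for 330 min.

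**Figure D5:**
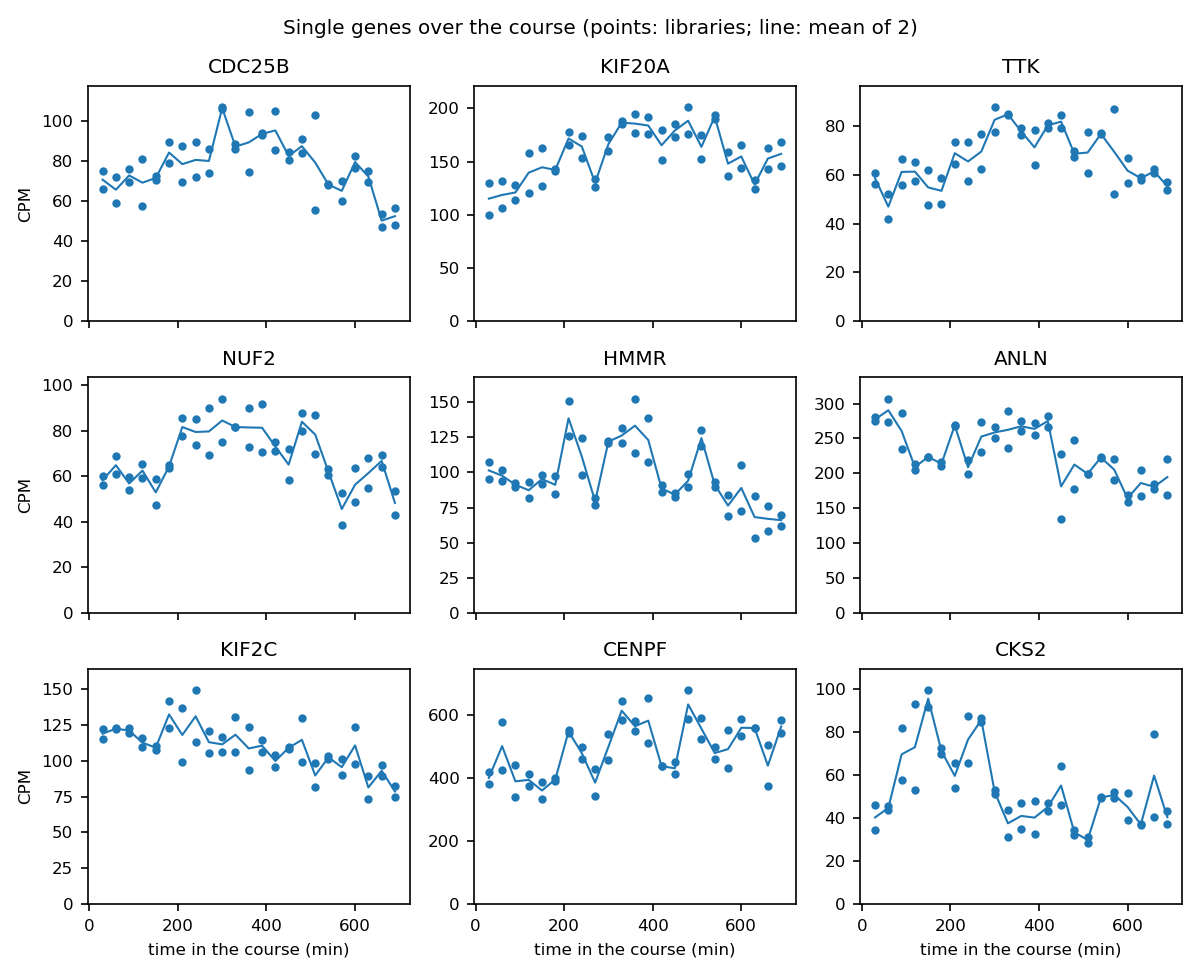
CPM of 9 genes in each course library (points) with the mean of the 2 libraries of a time point (line), against time in min. CDC25B, KIF20A, TTK and NUF2 are high in the middle, ANLN, HMMR and KIF2C end low, CENPF ends above its start, and CKS2 peaks at 150 min.

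Over the whole course more of the 51 fell than rose. A straight line through the 46 libraries gave 16 lower and 3 higher at 690 min than at 30 min, where 17.5% of all genes were lower and 16.1% higher (33.6% called). The median fitted change was -0.11, against -0.02 over all genes. Between the 6 libraries at 630 to 690 min and the 6 at 30 to 90 min, 14 were lower and 2 higher, where 12.6% of all genes were lower and 12.6% higher (25.2% called).

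ANLN, anillin, which links the cleavage furrow to the actin cortex, ran from 235 to 307 CPM at the start (median 277) and from 168 to 220.2 CPM at the end (median 181). The 2 windows did not overlap, 1.48-fold (log2 -0.56 ± 0.098 SE, adjusted p = 1.17e-05). KIF2C went from 115 to 123 CPM (median 122) to 73.2 to 96.9 CPM (median 85.7), also without overlap, 1.43-fold (log2 -0.52 ± 0.10 SE, adjusted p = 9.9e-05). It had the smallest p for a straight trend (1.40-fold lower, adjusted p = 2.3e-05). Cyclin B1 (CCNB1) had medians of 299.9 and 229.6 CPM, 1.30-fold (log2 -0.38 ± 0.085 SE, adjusted p = 0.000573), and CENPE 241 and 191 CPM, 1.31-fold (log2 -0.39 ± 0.09 SE, adjusted p = 0.000699). HMMR fell by 1.44-fold, and the kinases NEK2, of centrosome separation, and AURKA, of spindle assembly, by 1.34-fold and 1.28-fold (adjusted p = 0.000299, 0.00451 and 0.00477).

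ESPL1, CDCA8 of the passenger complex, SMC2 and SMC4 fell by 1.20-fold to 1.39-fold (adjusted p = 0.00620 to 0.00903). The CDCA8 call was lost without 30 min replicate 2, 60 min replicate 1 or 90 min replicate 2 (adjusted p up to 0.0599), and the trend of CCNB1 without 690 min replicate 2 (adjusted p = 0.0512). KIF20A and CENPF rose against this current. KIF20A ended 1.23-fold (log2 0.30 ± 0.093 SE, adjusted p = 0.0124) above its start, a call that was lost without 30 min replicate 1 or 60 min replicate 1 (adjusted p up to 0.0567), and CENPF 1.21-fold (log2 0.28 ± 0.091 SE, adjusted p = 0.0201). Without replicate 1 at 30 min, 0 of the 51 were called higher and 12 lower. For a straight trend NCAPD2, AURKA, CDC20, CKS2, ESPL1 and MAD2L1 were among those that fell (adjusted p = 2.6e-05, 7.03e-05, 0.00252, 0.00315, 0.00556 and 0.00606).

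The median of the G1/S and replication genes, which act earlier in the cycle, rose first and then fell through the course. Centred in the same way, it was 0.10 at 30 min, 0.29 at 150 min, 0.23 at 240 min and -0.26 at 690 min. In the straight trend 29 of 34 fell and 0 rose, with a median of -0.52 over the course, and between the end windows 20 fell. In the middle 6 were higher and 1 lower than at the ends. Over all genes 17.5% fell and 16.1% rose in the trend, and 12.6% fell between the end windows. In the middle 5.68% of all genes were higher and 4.34% lower. MCM3 of the replicative helicase fell by 1.82-fold (adjusted p = 8.16e-14). From the middle to the end both sets went down, by 0.32 in the median of the mitosis genes and 0.29 in that of the G1/S genes. From the start to the middle the mitosis genes gained 0.16 where the G1/S genes lost 0.14. The difference between the lists was not tested.

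Among 42 further G2 and mitosis genes the counts in the course were as follows. In the middle 12 were higher and 0 lower than at the ends, and 13 fell and 2 rose in the straight trend. Over all genes 5.68% were higher and 4.34% lower in the middle, and 17.5% fell and 16.1% rose in the trend. DEPDC1 led in the middle (1.41-fold, adjusted p = 4.44e-05), and ZWINT of the outer kinetochore had the smallest p in the trend and fell from 178 ± 30.0 to 113 ± 6.77 CPM between the end windows (SD, n = 6; edgeR adjusted p = 2.24e-07). Of 19 inner and outer kinetochore genes 3 were higher in the middle, led by MLF1IP (CENPU; 1.44-fold, adjusted p = 3.02e-05). Of 17 APC/C genes 1 was, the E2 enzyme UBE2S (1.49-fold, adjusted p = 0.00664). Of 14 condensin and cohesin genes 2 were higher and 1 lower in the middle, led by SMC3 (adjusted p = 0.00709), and in the straight trend 9 fell and 2 rose.

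Of 12 MuvB and DREAM genes, 2 were higher in the middle, where 5.68% of all genes were higher and 4.34% lower. TFDP2 went from 70.7 ± 3.96 CPM at the start to 125 ± 12.0 in the middle and 128 ± 8.51 at the end (SD, n = 6; edgeR adjusted p = 6.98e-10 for the end against the start). MYBL2 stood at 126 ± 11.2, 131 ± 15.0 and 91.4 ± 8.48 CPM (SD, n = 6; edgeR adjusted p = 0.000605 for the end against the start). FOXM1 stood at 98.5 ± 10, 101 ± 5.18 and 95.5 ± 13.9 CPM (SD, n = 6; edgeR adjusted p = 0.814). Of 8 tested CDK inhibitors and D cyclins, 4 were higher and 1 lower in the middle. CDKN2B, low at both ends (1.57 ± 1.05 and 2.30 ± 1.60 CPM), stood at 9.33 ± 2.92 CPM in the middle (SD, n = 6; edgeR adjusted p = 9.75e-08), and CCND1 fell from 225 ± 34.7 to 139.8 ± 14.8 CPM between the end windows (SD, n = 6; edgeR adjusted p = 1.67e-07).

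Set beside the promoters, genes with and without a CHR match in their window gave these counts. In the middle of the course 13 of 35 with a match and 3 of 8 without one were called higher (5.68% of all genes), with medians of 0.22 and 0.13. From Day1 to Day2, 10 of 35 with a match and 4 of 8 without one were called (20.1% of all genes), with medians of 0.18 and -0.15. From Day0 to Day1 the counts were 9 of 35 and 1 of 8 (7.29% of all genes), with medians of -0.21 and -0.28. KIF2C and CENPE, printed above without a match, moved in opposite directions from Day1 to Day2. ANLN and CKS2, both with a match just before the start, differed in the course: r with the median of the others was 0.63 for ANLN and -0.18 for CKS2. The groups of 8 are too small to set against each other, and their difference was not tested.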

How the data were processed

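Expected counts per gene (estimated counts that need not be whole) and TPM values, rescaled to a common sum over the listed genes, were deposited by the authors for 58 libraries. Per the submitters' processing notes, alignment used Bowtie 0.12.2 and both hg19 and mm8 are named as builds. The counting program, the annotation and the purpose of the mouse build are not stated there. Group and replicate come from the sample labels.

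Expected counts were rounded and tested in R 4.3.3 with edgeR 4.0.16 (quasi-likelihood F test, TMM, filterByExpr) over all genes, with Benjamini-Hochberg adjustment and calls at 0.05. Days were fitted on all 12 daily libraries and the course on all 46. CPM use TMM library sizes, and log2 CPM a prior count of 2. The scripts were tested on simulated data. Replicate pairs differed by more than sampling noise (chi-square per degree of freedom at least 3.74). Alternatives were DESeq2 1.42.0, limma 3.58.1 on log2(TPM + 1) and log2(TPM + 0.1), no filter, a replicate block, fewer days in the fit, a log2 limit of 1 and leaving out each library.

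Members and lists were chosen with earlier results of these data known. Per comparison the text names the called members (at most the 12 with the smallest adjusted p, or the 3 nearest where fewer than 3 were called), and in each role group the member of highest TPM and that of widest range over the days. In the other lists it names the gene with the smallest p for some comparisons, not for all. Other members are named to account for the set. The fit of the middle against the ends and its window were added after seeing the data. Sequences are from RefSeq (GRCh38.p14), another build than that of the counts, and were matched by symbol.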

Additional observations from a re-analysis of the deposited data

Results flagged for a closer look

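Of 24 groups of 6 libraries checked (12 members in the start and the end window of the course), 1 held a library that stood apart from the rest of its group. At the end of the course, NEK2 read 60.9 CPM in replicate 1 at 660 min, against 37.0 to 44.2 CPM in the other 5 libraries, and the gap to the nearest was 0.645 of the whole range on the log2 scale, above the 95% limit of a Dixon test for 6 values. Chance flags about 1 in 20 such groups. NEK2 was lower at the end than at the start with this library included.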

How the results depend on the processing

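With a log2 change of at least 1 also required, the calls among the 51 genes fell to 2 from Day0 to Day1 (10 without that limit), 1 from Day1 to Day2 (15), 3 from Day2 to Day3 (9), 0 between Day3 and Day0 (7), and 0 for the course trend (19), end against start (16) and middle against ends (19). Over all genes the limit left 661 calls from Day0 to Day1 (931 without it), or 5.18% of the genes tested (7.29% without it). It left 1499, 1668 and 1807 calls for Day1 to Day2, Day2 to Day3 and Day3 against Day0 (2569, 2890 and 2746 without it), and 1655, 1290 and 364 for the course (4588, 3440 and 1367). From Day2 to Day3, log2(TPM + 1) gave 14 calls among the 51 and 3403 over all genes, and a fit of only the 2 days gave 4 and 1352. Over all genes the fit of only the 2 days gave 2298 calls from Day0 to Day1, where DESeq2 gave 1474 (931 by edgeR). DESeq2 gave 37 of the 51 for any course time (21) and 5507 over all genes (3940). Both TPM settings gave 12 of the 51 for the middle against the ends, and 1370 and 1276 over all genes. The rhythm over all genes (18) gave 644 with no filter, 195 with DESeq2, 1 with either TPM setting, 2 at 270 min, 615 at 330 min and 30 with linear time only. Beyond the fold limit, whose construction lowers the calls, the cause was not tested. No named member changed direction, but the median of the 51 from Day1 to Day2 went from 0.064 to -0.12 with both TPM settings, and their calls from Day2 to Day3 from 4 higher and 5 lower to 13 and 1 with log2(TPM + 1). Of 64 counts among the 51 under these settings, 52 stayed within 1.5 times the main count. The 52 include those of the rhythm, where the main count and every other count were 0.

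Leaving out 1 library gave 4 to 12 calls among the 51 from Day0 to Day1, 7 to 16 from Day1 to Day2, 5 to 12 from Day2 to Day3, 4 to 10 between Day3 and Day0, 21 to 29 for any day, 16 to 19 for the trend, 12 to 16 for end against start and 15 to 21 for the middle. Over all genes it gave 518 to 1238, 1249 to 2820, 1717 to 3238, 1858 to 3101, 4673 to 5966, 4371 to 4697, 2924 to 3210 and 1251 to 1423. For end against start only the 12 libraries compared were left out, and for any course time and the rhythm none. Whether the replicate numbers paired the samples was not settled, as no chance level was set beside the correlations. Of the same-number correlations, 3 of 18 were over 0.1 in the days (highest 0.167) and 0 of 506 in the course. In the days 6 of 12 libraries and in the course 22 of 46 were most like their own number. With the replicate block the 51 genes gave 10, 14, 7 and 8 calls for the 4 day comparisons, 27 for any day, 20 for any course time, 19 for the trend, 16 for end against start, 18 for the middle and 0 for the rhythm. Depth was lowest on Day2 (3160806 to 3599441 counts), and its part in the calls was not tested.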
